A study of Mus musculus with 8 samples.

Results

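The IL-1, IL-18 and IL-33 axis was read in RNA-seq of primary murine cardiac fibroblasts as 10 genes, chosen by symbol among the 22274 genes of the deposited table. They are the agonist ligands Il1a, Il1b, Il18 and Il33, the receptor antagonist Il1rn, the signalling receptors Il1r1, Il1rap and Il1rl1, the decoy receptor Il1r2, and Casp1, the protease that matures IL-1β and IL-18. Of these, 8 passed the filter on low counts and were tested among 13533 genes.

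All 8 libraries came from fibroblasts cultured from mouse heart and treated with TGF-β (5 ng/ml, 24 h), a cytokine that turns fibroblasts into matrix-producing myofibroblasts. The 4 libraries labelled GFP carried the empty vector and the 4 labelled OEIRF7 were made to overexpress IRF7, a transcription factor of the interferon response. The paper names an adenoviral vector for this experiment while the description of the series names an adeno-associated one, and neither the age of the mice nor cells without TGF-β are given for these libraries. Mouse Irf7 was counted at 107, 147, 92.0 and 126 CPM (counts scaled to a common library size) in the GFP libraries and at 14.9, 14.5, 14.9 and 16.4 CPM in the OEIRF7 libraries, a log2 fold change of -2.96 (SE 0.12, adjusted p = 7.7e-11, edgeR). The counts of the targeted mouse gene thus ran against the label, the reagent list of the study names human IRF7 in the adenovirus and mouse Irf7 in the adeno-associated virus, how reads of either vector were counted at the mouse gene was not tested, and all directions below refer to the libraries labelled OEIRF7 rather than to a measured gain of IRF7.

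Cytokines of the IL-1 family signal through paired receptor chains. IL-1α and IL-1β bind the receptor encoded by Il1r1, IL-33 binds the receptor encoded by Il1rl1 (ST2), and both then recruit the shared accessory chain encoded by Il1rap, which carries the signal through MyD88 and the IRAK kinases. IL-18 uses its own pair of chains, Il18r1 and Il18rap. The antagonist encoded by Il1rn occupies the IL-1 receptor without signalling, and the decoy encoded by Il1r2 binds ligand without a signalling domain. In the heart these cytokines are known as alarm signals of injured cells, and fibroblasts are among the cells that answer them.

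Il1a, Il1rn and Il1rl1 were the members tested with changes over 2-fold, and their promoter windows are printed here because the largest changes were at these genes. Each window holds the 250 bases before a RefSeq transcription start (GRCm38.p6), written 5′ to 3′ on the strand of the gene. Capitals mark matches to the AP-1 motif TGANTCA or to the NF-kB motif (GGG, any 5 bases, then CC), both searched on both strands. The Il1a window lies at chr2:129309973-129310222 on the minus strand, and the windows of Il1rn, on the plus strand, at chr2:24336610-24336859 before its upstream start and at chr2:24345121-24345370 before a start inside the gene. The windows of Il1rl1, on the plus strand, lie at chr1:40429320-40429569 before its distal start and at chr1:40439379-40439628 before a proximal start inside the gene.
Il1a: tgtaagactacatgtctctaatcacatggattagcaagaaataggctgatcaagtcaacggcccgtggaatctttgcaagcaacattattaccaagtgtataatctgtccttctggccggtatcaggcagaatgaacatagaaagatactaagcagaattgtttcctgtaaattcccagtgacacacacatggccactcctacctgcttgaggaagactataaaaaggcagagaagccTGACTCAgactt
Il1rn upstream: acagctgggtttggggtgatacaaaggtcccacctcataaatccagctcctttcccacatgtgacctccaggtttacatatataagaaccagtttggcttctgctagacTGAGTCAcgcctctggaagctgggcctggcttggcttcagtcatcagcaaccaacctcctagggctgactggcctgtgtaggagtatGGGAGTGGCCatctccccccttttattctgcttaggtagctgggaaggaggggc
Il1rn downstream: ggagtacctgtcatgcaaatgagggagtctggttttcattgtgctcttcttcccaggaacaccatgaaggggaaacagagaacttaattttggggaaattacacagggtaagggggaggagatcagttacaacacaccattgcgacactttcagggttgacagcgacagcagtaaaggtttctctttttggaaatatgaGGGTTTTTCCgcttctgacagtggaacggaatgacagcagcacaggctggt
Il1rl1 distal: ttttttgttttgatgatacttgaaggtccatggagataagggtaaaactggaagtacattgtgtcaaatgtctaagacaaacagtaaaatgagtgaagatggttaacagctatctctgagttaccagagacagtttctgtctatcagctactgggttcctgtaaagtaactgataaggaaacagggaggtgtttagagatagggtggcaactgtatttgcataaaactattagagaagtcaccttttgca
Il1rl1 proximal: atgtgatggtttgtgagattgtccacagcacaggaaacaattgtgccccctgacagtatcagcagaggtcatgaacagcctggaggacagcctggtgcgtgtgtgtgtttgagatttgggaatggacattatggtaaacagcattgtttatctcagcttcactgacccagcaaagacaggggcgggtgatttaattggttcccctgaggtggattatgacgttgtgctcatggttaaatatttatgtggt

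A further RefSeq window of Il1rn, at chr2:24345041-24345290, overlaps the downstream one and held no match, as did both windows of Il1rl1. The AP-1 letters TGACTCA stood in the Il1a window from -12 to -6 relative to the start, and TGAGTCA stood in the upstream Il1rn window from -141 to -135. They were found in 2 of the 15 windows of the members, and in 6.75% of 32851 windows of the same length over all genes. GGGAGTGGCC in the upstream Il1rn window, from -54 to -45, and GGGTTTTTCC in the downstream one, from -51 to -42, matched the NF-kB motif. That motif was in 5 of the 15 windows, those of Il1r1, Il1rn, Casp1 and Il1rap, and in 45.8% of all windows. The motif of interferon regulatory factors (GAAA, any 2 bases, then GAAA, also on both strands) was in no window of the members and in 2.98% of all windows. These are matches of letters, and no binding was measured.

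Of the 8 members tested, 4 were higher in the OEIRF7 libraries (Il1a, Il1rn, Il1rl1 and Il1r1), 1 was lower (Il1rap) and 3 were not called (Il18, Il33 and Casp1). Among all genes tested, 29.0% were called higher and 29.9% lower at an adjusted p under 0.05, so these counts by themselves do not set the members apart. A rise over 2-fold was called in 3 of the 8, against 4.66% of all genes. The members were chosen with earlier results of these data known, so the shares of all genes are no test of them. The groups did not overlap in 5 of the 8, as they did not in 53.8% of all genes tested; each of these 5 had an exact permutation p of 0.029, the smallest possible with 4 against 4. The median log2 fold change was 0.26 over the members tested and 0.002 over all genes tested. Il1a reached 10 counts in only 2 of the 4 GFP libraries and passed the filter through the OEIRF7 libraries.

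**Figure D1:**
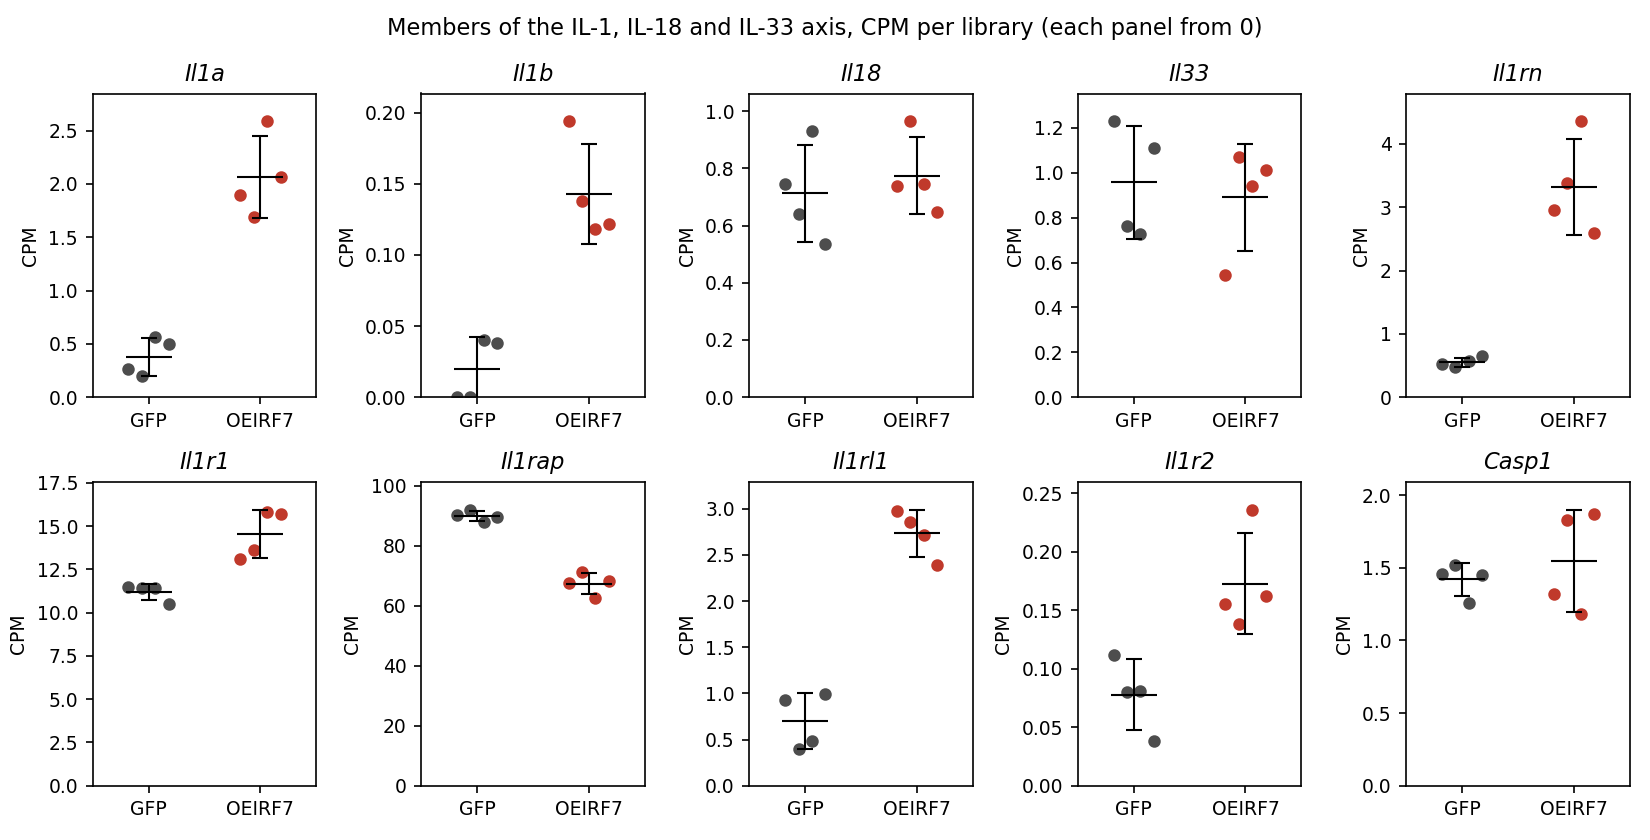
CPM of the 10 members, one panel per gene with its own axis from 0; each point is 1 library (4 GFP, 4 OEIRF7), horizontal lines are means and bars SD, with the lower bar of Il1b in GFP running past 0. Il1a, Il1rn, Il1rl1 and Il1r1 sit higher in every OEIRF7 library than in any GFP library. Il1b and Il1r2, below the filter, also do, but by few counts. Il1rap sits lower, and the points of Il18, Il33 and Casp1 overlap.

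Among the agonist ligands, Il1a rose. Il1a (chromosome 2, 129299610 to 129309972, minus strand) encodes IL-1α, which is active without cleavage and is released from damaged cells. It had 7, 5, 14 and 13 counts in the GFP libraries and 49, 49, 66 and 51 in the OEIRF7 libraries, that is 0.261, 0.200, 0.567 and 0.496 CPM against 1.90, 1.69, 2.59 and 2.07 CPM. Every OEIRF7 library was above every GFP library. The mean went from 0.381 ± 0.178 to 2.06 ± 0.386 CPM (SD, n = 4 each), a 5.36-fold rise (log2 fold change 2.42, SE 0.30, 95% interval 1.78 to 3.07, adjusted p = 6.9e-06, edgeR's quasi-likelihood test with Benjamini-Hochberg adjustment over 13533 genes). The gene overlaps Gm14023 on the opposite strand, and the strand setting of the counting is not stated.

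Il1b (chromosome 2, 129364570 to 129371139, minus strand), the inducible ligand that needs Casp1 for maturation, was close to undetected. It had 0, 0, 1 and 1 counts in GFP and 5, 4, 3 and 3 counts in OEIRF7, below the filter. The summed 2 counts against 15 give a depth-corrected ratio of 7.48 with a 95% exact interval of 1.74 to 67.4, which covers counting error only. With a filter of at least 1 count in total Il1b had an adjusted p of 0.038 in edgeR, and with DESeq2 one of 0.071, so its call depended on the method. Its antisense gene Il1bos overlaps it.

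Il18 (chromosome 9, 50554827 to 50581840) and Il33 (chromosome 19, 29925114 to 29960718), both on the plus strand, were not called. Il18, the ligand that drives interferon-γ production in lymphocytes, had 0.746, 0.641, 0.932 and 0.534 CPM in GFP and 0.737, 0.965, 0.746 and 0.649 CPM in OEIRF7 (log2 fold change 0.13, 95% interval -0.45 to 0.71, adjusted p = 0.71, edgeR). Il33, a nuclear alarm cytokine of barrier and stromal cells, had 1.23, 0.761, 0.729 and 1.11 CPM in GFP and 0.543, 1.07, 0.942 and 1.01 CPM in OEIRF7 (log2 fold change -0.10, interval -0.71 to 0.50, adjusted p = 0.77). The groups overlapped for both, and the intervals still allow changes of about the size seen at Il1r1 or Il1rap. Il18 overlaps Bco2 and Tex12 on the opposite strand.

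The antagonist Il1rn (chromosome 2, 24336853 to 24351494, plus strand) had the largest fitted rise among the members tested, with an interval that overlapped that of Il1a. It had 14, 12, 14 and 17 counts in GFP and 76, 98, 111 and 64 in OEIRF7, or 0.522, 0.481, 0.567 and 0.648 CPM against 2.95, 3.38, 4.36 and 2.60 CPM, with no overlap between the groups. The mean went from 0.555 ± 0.0717 to 3.32 ± 0.763 CPM (SD, n = 4 each), a 5.94-fold rise (log2 fold change 2.57, SE 0.23, 95% interval 2.08 to 3.06, adjusted p = 2e-07, edgeR). Il1rn has secreted and intracellular forms from different starts, which counts per gene do not separate.

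To compare antagonist and agonist within a library, the difference of log2 CPM of Il1rn and Il1a was taken. It was 0.83, 1.01, 0.00 and 0.34 in the GFP libraries and 0.61, 0.97, 0.73 and 0.32 in the OEIRF7 libraries. The groups overlapped, with means of 0.54 ± 0.459 and 0.66 ± 0.271 (exact permutation test, two-sided p = 0.74), so a difference between the rises of the 2 genes was not detected. On log2(FPKM + 0.1) the difference between the groups was 0.44 in place of 0.11 (exact permutation p = 0.14). Against its receptor Il1r1, the log2 CPM difference of Il1rn went from -4.16 ± 0.217 to -2.13 ± 0.31, without correction for length. The groups differed by 2.03 and did not overlap (exact permutation p = 0.029, the smallest that 4 against 4 allows). Adjusted over the 2 pairs tested, this exact permutation p was 0.057, which misses the threshold. Of the 4 pairs planned, those with Il1b or Il1r2 were not tested, since these genes stayed under 1 CPM. These are ratios of RNA and say nothing of protein.

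Among the signalling receptors, Il1rl1 rose by the most, Il1r1 rose slightly and Il1rap fell. Il1rl1 (chromosome 1, 40429570 to 40465415, plus strand) encodes ST2, both as the membrane receptor of IL-33 and as a soluble form that captures the ligand. It had 25, 10, 12 and 26 counts in GFP and 77, 83, 69 and 59 in OEIRF7, or 0.933, 0.401, 0.486 and 0.992 CPM against 2.98, 2.86, 2.71 and 2.39 CPM. GFP replicates 2 and 3 were lower than the other GFP libraries, and the groups did not overlap. The mean went from 0.703 ± 0.303 to 2.74 ± 0.256 CPM (SD, n = 4 each), a 3.85-fold rise (log2 fold change 1.94, SE 0.25, 95% interval 1.40 to 2.49, adjusted p = 1.1e-05, edgeR). Counts per gene do not separate the soluble from the membrane form.

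Il1r1 (chromosome 1, 40225080 to 40317257, plus strand), the IL-1 receptor, had 11.5, 11.4, 11.4 and 10.5 CPM in GFP and 13.1, 13.6, 15.8 and 15.7 CPM in OEIRF7. All OEIRF7 libraries were above all GFP libraries, of which replicate 4 was the lowest at 10.5 CPM, by a log2 fold change of 0.38 (SE 0.079, 95% interval 0.21 to 0.55, adjusted p = 0.00081, edgeR). Il1rap (chromosome 16, 26581704 to 26730117, plus strand), the shared accessory chain, had the highest level per length of all members (21.0 FPKM in GFP). It had 90.4, 92.1, 87.9 and 89.7 CPM in GFP and 67.5, 71.3, 62.7 and 68.2 CPM in OEIRF7, and every OEIRF7 library was below every GFP library. Its mean fell by 0.42 on the log2 scale (SE 0.042, 95% interval -0.51 to -0.33, adjusted p = 7e-07, edgeR). Il1r1 overlaps the provisional gene model Gm38070 on the same strand, and Il1rap overlaps the antisense gene Gm20319.

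The decoy Il1r2 (chromosome 1, 40074079 to 40125231, plus strand) had 3, 2, 2 and 1 counts in GFP and 4, 4, 6 and 4 counts in OEIRF7, below the filter. The summed 8 counts against 18 give a ratio of 2.24 with a 95% exact interval of 0.928 to 5.96, which includes 1 and covers counting error only. Every OEIRF7 library was above every GFP library, but by few counts, and Il1r2 was not tested in the main fit. It overlaps Gm16894 on the opposite strand and Gm37347 on the same strand. Casp1 (chromosome 9, 5298517 to 5307265, plus strand) had 1.46, 1.52, 1.26 and 1.45 CPM in GFP and 1.32, 1.83, 1.18 and 1.87 CPM in OEIRF7, with overlapping groups (log2 fold change 0.12, 95% interval -0.33 to 0.58, adjusted p = 0.64, edgeR).

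**Figure D2:**
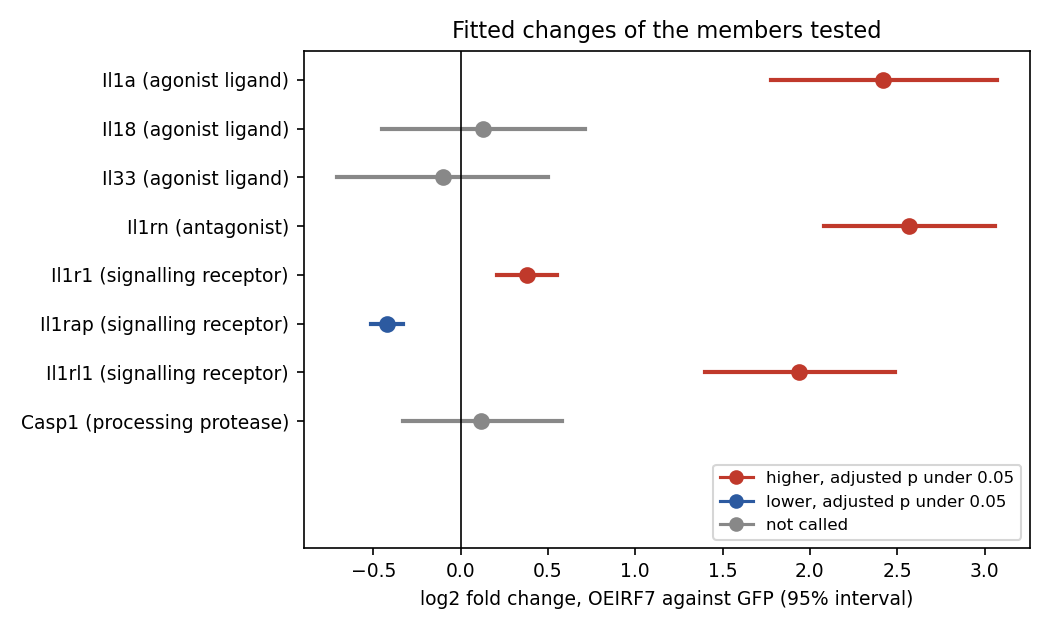
Log2 fold change of the 8 members tested, OEIRF7 against GFP, as points with 95% intervals from edgeR, colored by call. The intervals of Il1a, Il1rn and Il1rl1 lie above 1, that of Il1r1 lies above 0, that of Il1rap lies below 0, and those of Il18, Il33 and Casp1 include 0.

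Levels of different genes were compared per length, in FPKM (fragments per length of transcript and sequencing depth) as deposited. In the GFP libraries the order of mean level was Il1rap (21.0 FPKM), Il1r1 (2.27), Casp1 (1.12), Il18 (0.87), Il33 (0.375), Il1rn (0.373), Il1rl1 (0.237), Il1a (0.19), Il1r2 (0.0675) and Il1b (0.015). Casp1 and Il18 overlapped in range, as did each neighbouring pair from Il33 to Il1r2. In the OEIRF7 libraries Il1rn followed Il1r1 at 2.49 FPKM, its range overlapping that of Il1r1 (3.03 FPKM). Il1a at 1.06 FPKM and Il1rl1 at 0.917 FPKM then lay among Casp1 at 1.12 FPKM and Il18 at 0.902 FPKM, each overlapping its neighbour, and Il1rap still led at 16.3 FPKM. FPKM was rounded to 2 decimals. Il1rl1 was listed at 0.25 FPKM in GFP libraries with 25 and with 10 counts, a gap larger than rounding gives. FPKM and counts of low genes thus do not always follow each other, and the order of low genes is uncertain.

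Il1r2, Il1r1 and Il1rl1 lie in a run of receptor genes of the family on chromosome 1, from 40074079 to 40551705 (478 kb), whose 6 protein-coding genes are all receptors of the family. In their order along the plus strand, Il1rl2, the receptor of the IL-36 ligands, went from 18.9 ± 1.88 to 27.5 ± 1.02 CPM (SD, n = 4 each; log2 fold change 0.54, SE 0.069, adjusted p = 9.4e-06, edgeR). Il18rap, the accessory chain of the IL-18 receptor, had 18, 16, 45 and 26 counts in GFP and 127, 167, 185 and 111 in OEIRF7, without overlap, GFP replicate 3 being the highest of its group. It rose 5.45-fold (log2 fold change 2.45, SE 0.26, adjusted p = 1.5e-06, edgeR). Il18r1, the chain that binds IL-18, had no count in any library, which allows up to 0.105 to 0.123 CPM per library (3 counts). The 4 genes of this run that were tested all rose, and between Il1rl1 and Il18rap, which rose by over 2-fold, lies the undetected Il18r1. Among all genes tested 29.0% were called higher, and 53.8% had groups without overlap in either direction. Whether the genes of the run moved together was not tested.

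**Figure D3:**
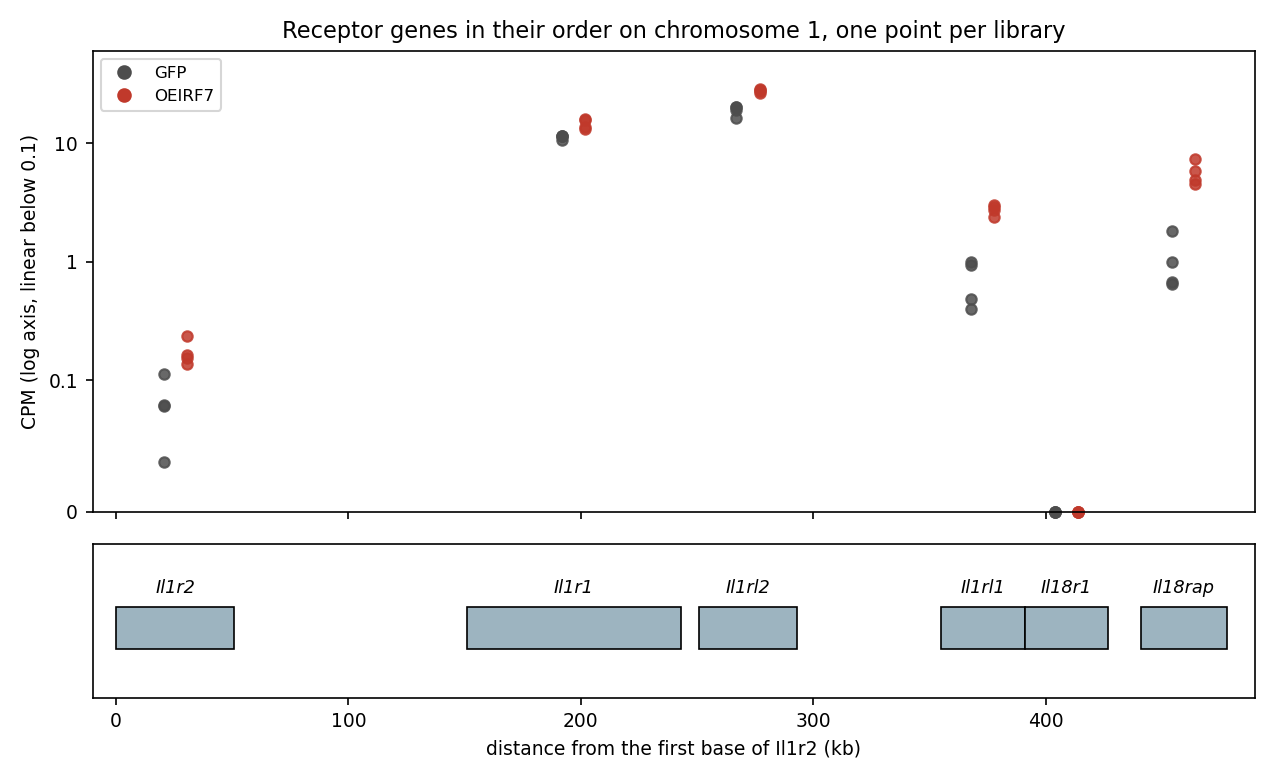
CPM of the 6 receptor genes of chromosome 1 in each library (upper panel; log axis, linear below 0.1 CPM; 4 GFP and 4 OEIRF7 points per gene) above the extent of each gene (lower panel; kb from the first base of Il1r2). The OEIRF7 points of Il1r1, Il1rl2, Il1rl1 and Il18rap lie above all GFP points. Those of Il1r2, below the filter, also do, but by few counts. Il18r1 is at 0 in every library.

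Of the other family receptors and binding proteins, 4 of 7 were tested, 2 rose (Il18rap and Il1rl2, both in the chromosome 1 run) and none fell. With 29.0% of all genes higher and 29.9% lower, these counts do not set the list apart. Il18bp, the soluble inhibitor of IL-18, had a log2 fold change of -0.29 (adjusted p = 0.076, edgeR), and Sigirr, an inhibitory receptor, one of -0.35 (adjusted p = 0.38). None of the 5 other ligands (Il36a, Il36b, Il36g, Il36rn and Il1f10), which neighbour Il1rn on chromosome 2, passed the filter, and 3 had no count. Il36g, an IL-36 agonist, had 3, 0, 1 and 0 counts in GFP and 2, 8, 11 and 8 in OEIRF7.

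The signalling steps next to the receptors moved in both directions. All 14 genes were tested, 3 rose, 5 fell and 6 were not called, with a median log2 fold change of -0.03; with 29.0% of all genes higher and 29.9% lower, these counts do not set the list apart. Map3k8 (log2 fold change 0.83), a kinase that activates ERK signalling, Myd88 (0.43), the adaptor of the receptors, and Peli1 (0.41), a ubiquitin ligase of the IRAK complex, rose. Irak1, a kinase recruited by MyD88, went from 96.6 ± 4.04 to 37.4 ± 1.19 CPM (SD, n = 4 each; log2 fold change -1.37, SE 0.042, adjusted p = 6.7e-12, edgeR), the largest change of this list. Tollip, an adaptor that restrains IRAK1, went from 187 ± 2.95 to 102 ± 5.01 CPM (log2 fold change -0.88, adjusted p = 1.3e-10). Irak3, an inhibitory IRAK (log2 fold change -0.36), and Traf6, the ubiquitin ligase downstream of the IRAKs (log2 fold change -0.23), also fell. Tab3, a partner of the kinase TAK1, was the other gene called lower (log2 fold change -0.22) and is named here after its values were seen. With limma on FPKM, 3 genes of this list were lower rather than 5, and Irak3 was not called.

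Casp1 was read beside other genes of the inflammasome, of pyroptosis and of cytokine release. Of 19 genes 16 were tested, 7 rose, 4 fell and 5 were not called, with a median log2 fold change of 0.17, again beside 29.0% higher and 29.9% lower among all genes. Gsdmd, the pore former cleaved by inflammatory caspases, went from 12.5 ± 0.957 to 31.3 ± 2.42 CPM (SD, n = 4 each; log2 fold change 1.32, SE 0.073, adjusted p = 1.3e-09, edgeR). Casp4, the caspase that senses intracellular lipopolysaccharide and lies next to Casp1 on chromosome 9, went from 17.3 ± 1.03 to 39.1 ± 4.01 CPM (log2 fold change 1.18, SE 0.074, adjusted p = 5.4e-09). The channel Panx1 (log2 fold change 0.65) and the pore former Gsdme (log2 fold change 0.61) also rose. Txnip, a thioredoxin-binding protein (log2 fold change -0.42), Nek7, a partner of NLRP3 (log2 fold change -0.36), P2rx7, the ATP-gated channel (log2 fold change -0.30), and Capn2, a calpain (log2 fold change -0.21), fell. The sensor Nlrp3 had 0.464 ± 0.283 and 0.836 ± 0.345 CPM (adjusted p = 0.11) and the adaptor Pycard 1.29 ± 0.343 and 1.08 ± 0.427 CPM (adjusted p = 0.51), both not called by edgeR; these were chosen after their values were seen.

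Genes that fibroblasts are known to induce after IL-1, a list written with earlier results of these data known, were mostly higher. Of 25 genes 22 were tested, 19 rose, 15 of them by over 2-fold, none fell, and the median log2 fold change was 1.69. The shares of all genes (29.0% higher, 4.66% higher by over 2-fold) are no test of this list, since it was written with results known. Csf2, Cxcl2, Mmp9 and Nos2 had under 10 counts in at least 1 GFP library and passed the filter only with the OEIRF7 libraries. They are included in the counts of genes higher and over 2-fold higher and in the median. With at least 10 counts required in every library, 15 genes were called higher. The matrix metalloproteinase Mmp9 went from 0.185 ± 0.136 to 11.2 ± 2.19 CPM (SD, n = 4 each; log2 fold change 5.88, adjusted p = 2.4e-10, edgeR), and the collagenase Mmp13 from 1.74 ± 0.261 to 60.1 ± 15.5 CPM (log2 fold change 5.11, adjusted p = 4.4e-11). Csf2, the growth factor GM-CSF, went from 0.0484 ± 0.0376 to 2.09 ± 0.600 CPM (log2 fold change 5.29, adjusted p = 1.3e-07), and both Csf2 and Mmp9 rest on few counts in GFP; without GFP replicate 4 the log2 fold change of Mmp9 was 6.51. The chemokine Ccl7 went from 16.6 ± 2.13 to 252 ± 22.8 CPM (log2 fold change 3.93, adjusted p = 1.9e-13). The 3 genes not called were Il6 (log2 fold change -0.05), Lif (log2 fold change -0.00) and Lcn2 (log2 fold change 0.16). These genes respond to many stimuli, and whether IL-1 signalling was active in these cells was not tested.

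**Figure D4:**
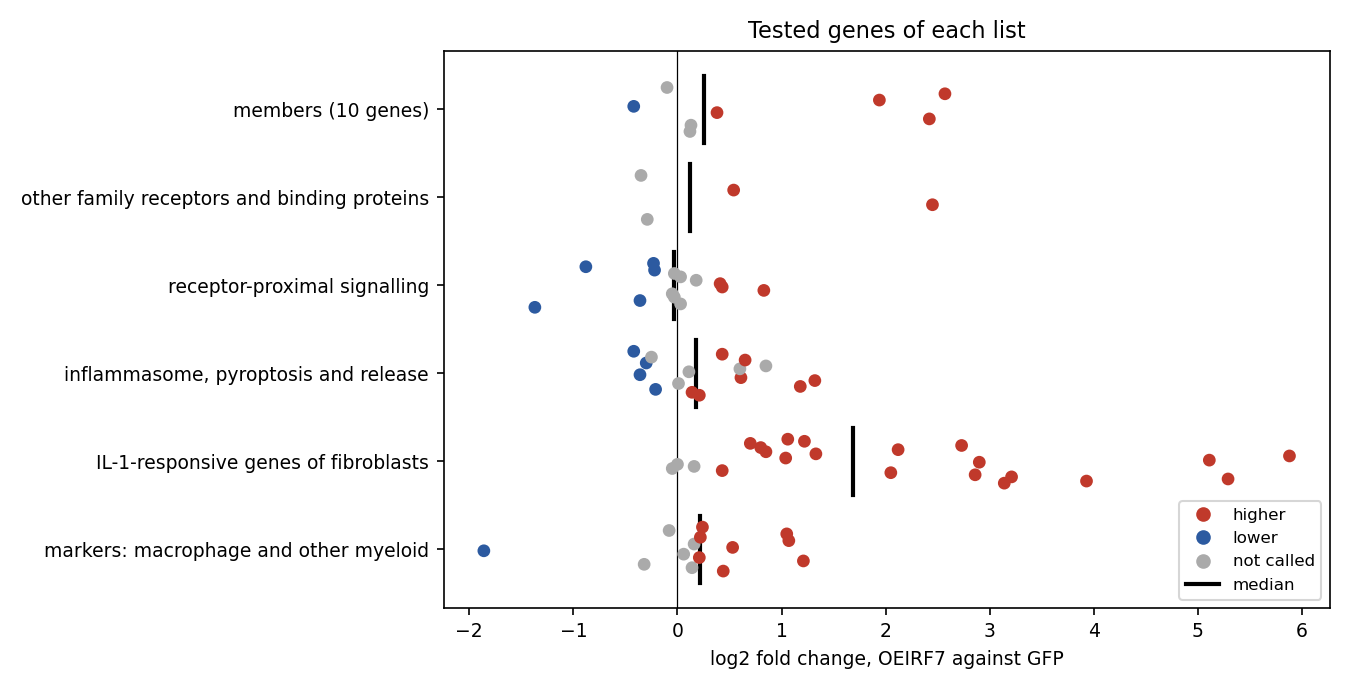
Log2 fold change of each tested gene, OEIRF7 against GFP, by list, colored by call, with the median of each list as a black bar. The genes known to respond to IL-1 have a median of 1.69. None of them is called lower, and neither is any of the other family receptors and binding proteins. The members and the remaining lists hold genes called in both directions.

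The cells were checked against markers of each cell type. Among all genes tested 29.0% were called higher and 29.9% lower, and no marker list was tested against these shares. All 10 fibroblast markers were at 1 CPM or more, with a sum of 13500 to 14200 CPM in GFP and 11900 to 12500 CPM in OEIRF7, with 1 higher, 6 lower and 3 not called. The largest change of this list was at Tcf21, which fell from 58.3 to 23.1 CPM (log2 fold change -1.33, adjusted p = 2e-08, edgeR). Pdgfra was the gene called higher (log2 fold change 0.25). The 14 markers of macrophages and other myeloid cells, which also express members such as Il1rn, Il1b and Casp1, were all at 1 CPM or more, with a sum of 319 to 380 CPM in GFP and 413 to 458 CPM in OEIRF7. Of these, 8 rose, 1 fell and 5 were not called: Itgam, Cd14 and Mrc1 rose by 1.07, 1.21 and 1.05 on the log2 scale, Cx3cr1 fell by 1.86, and Ptprc (log2 fold change -0.08) and Csf1r (log2 fold change 0.06) were not called. The part of myeloid cells in the rise of Il1rn, Il1a and Il1rl1 was not tested. In bulk libraries, fewer cells of a type and less RNA per cell cannot be told apart.

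Of mast cell markers only Kit was tested (log2 fold change 0.17, not called), and Fcer1a was at 0 in every library, while mast cells are known for Il1rl1. Among lymphocyte markers Cd3e, Cd3d, Cd3g and Nkg7 were at 0 in every library, and only Gata3 was tested, which rose (log2 fold change 0.57). Of the neutrophil markers, cells known for Il1r2, none was tested, S100a9 and Ly6g were at 0 in every library, and the sum was 0.122 to 0.420 CPM in GFP and 0.471 to 0.933 CPM in OEIRF7. The 6 endothelial markers summed to 189 to 198 CPM in GFP and 186 to 209 CPM in OEIRF7, with 2 higher, 1 lower and 3 not called. The 11 epithelial and mesothelial markers summed to 139 to 147 CPM in GFP and 93.5 to 108 CPM in OEIRF7, with 3 higher, 2 lower and 2 not called of 7 tested. Upk3b fell from a mean of 51.8 to 20.8 CPM and Lrrn4 from 77.7 to 48.0 CPM. Krt19 rose from 4.75 to 18.5 CPM (log2 fold change 1.96), and Cdh1 (1.84) and Msln (0.19) also rose. Cdh1, at 0.127 CPM in GFP, passed the filter only with the OEIRF7 libraries. The part of such cells in the rises of the members was not tested. Mural markers (2 higher, 1 lower and 1 not called of 4 tested) summed to 1360 to 1480 and 1280 to 1430 CPM, and of the cardiomyocyte markers only Tnnt2 was tested, which fell by 0.54 on the log2 scale.

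The libraries held 24454801 to 28658826 counts, so that 1 count was worth 0.0345 to 0.0405 CPM, and all members but Il1rap and Il1r1 rest on at most 111 counts per library. The legend of the experiment speaks of biological replicates, fewer than the libraries deposited, but nothing in the labels says that the libraries of a group came from separate cultures, so p-values measure the spread between these libraries, which may be technical. The counts of libraries within a group differed by more than sampling noise.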

How the data were processed

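RNA-seq of 8 libraries (4 GFP, 4 OEIRF7) was analysed. According to the methods of the study, the authors trimmed reads with Trimmomatic, mapped them to GRCm38 with HISAT2 and counted reads per gene with HTSeq-count. The authors deposited these raw counts without normalization, together with FPKM from Cufflinks, rounded to 2 decimals. Tool versions and the strand setting are not given in the sources used here. The figure legend of the experiment gives 3 biological replicates, without naming which libraries these were, and all 4 per group were used. The labels and the methods differ on the extraction and library kits. Columns with the authors' own comparison (log2 of a ratio, p-value and FDR) were not used. In 121 symbols the letters nc had been replaced by GFP, and these were restored by Ensembl identifier.

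Counts were fitted in R 4.3.3 with edgeR 4.0.16 (filterByExpr with the groups, TMM scaling, glmQLFit and glmQLFTest, no covariates), with Benjamini-Hochberg adjustment over 13533 genes and a threshold of 0.05. CPM used TMM-scaled library sizes, with a prior count of 2 on the log2 scale. Exact permutation tests were two-sided, from SciPy 1.17.1. Intervals of summed counts and the limit of 3 counts for a gene at 0 cover counting error only. Coordinates came from GENCODE M21 and promoter windows from RefSeq (GRCm38.p6), which matched 10 of 10 members.

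The genes named are the 10 members, Irf7, the receptor genes of the chromosome 1 run, and up to 4 largest rises and falls in each list at an adjusted p under 0.05 and a mean of at least 1 CPM. Other genes named, such as Tab3, Nlrp3, Pycard, Il18bp, Sigirr, and the uncalled or low-count genes of a list, were chosen after their values were seen, and the cell type markers singled out likewise. The members and lists were chosen with earlier results of these data known. Alternatives were DESeq2 1.42.0, no scaling, upper-quartile scaling, filters of at least 1 count in total and of 10 counts in every library, a replicate block, each library left out, and limma 3.58.1 on log2(FPKM + 1) and log2(FPKM + 0.1), and for the balance of gene pairs a prior count of 0.5 and FPKM. The scripts were tested on simulated data.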

Additional observations from a re-analysis of the deposited data

Results flagged for a closer look

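Each group of 4 libraries was checked for a single library far from the other 3, for the members, Irf7 and the named genes of the lists, 64 groups in all, of which chance alone flags about 1 in 20. There were 3 such libraries. Il1r1 was at 10.5 CPM in GFP replicate 4, with the other GFP libraries at 11.4 to 11.5 CPM. Nek7 was at 171 CPM in OEIRF7 replicate 3, with the others at 149 to 152 CPM. Casp4 was at 18.8 CPM in GFP replicate 3, with the others at 16.6 to 16.9 CPM. No library was far from its group for any other member.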

How the results depend on the processing

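All 63 alternative values of Il1a, Il1rn, Il1rl1 and Il1r1 stayed higher and called, and all 16 of Il1rap stayed lower and called. Il1a could not be tested with at least 10 counts in every library. On the log2(FPKM + 1) scale, which understates changes of low genes, Il1a, Il1rn and Il1rl1 had log2 fold changes of 0.79, 1.34 and 0.63. The members not called stayed uncalled; with 1 library left out, Il18 ranged from -0.0027 (without OEIRF7 replicate 2) to 0.28 and Il33 from -0.21 to 0.07, with 0.04 without GFP replicate 1 and 0.07 without OEIRF7 replicate 1, and Il33 was 0.03 and 0.08 in limma with a pseudocount of 1 and 0.1. Of the list counts, the other family ligands had 1 gene higher, Il36g, with DESeq2 and with at least 1 count in total (0 otherwise), the other family receptors had 0 to 1 lower with 1 library left out (1 without GFP replicate 3), and receptor-proximal signalling had 3 lower in both limma fits. Of 334 alternative values of the named list genes, 330 kept direction and call; Irak3 and P2rx7 were not called in limma. The balance of Il1rn to Il1a ranged from -0.07 (without GFP replicate 3) to 0.27 with 1 library left out. It was 0.44 on log2(FPKM + 0.1) and 0.04 with a prior count of 0.5, neither with an exact permutation p under 0.05. The balance of Il1rn to Il1r1 ranged from 1.94 to 2.18, with an exact permutation p of 0.057. That is the smallest that 3 against 4 allows, so no balance with 1 library left out could fall under 0.05. The causes of these changes were not tested. Depth limits Il1b and Il1r2, which had at most 6 counts in any library, and the intervals of Il18 and Il33.

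Whether libraries of the same replicate number form pairs was not settled. The correlations of their deviations were small, at 0.08, 0.10, 0.14 and 0.10, but all 8 libraries correlated best with their own number. The main fit treated the libraries as unpaired. With a replicate block, 4 members were higher and 1 lower, as without it. Of all 13533 genes 4057 came out higher and 4154 lower with the block, against 3924 and 4045 without it.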
